A study of Homo sapiens with 6 samples.

Results

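The genes described here encode the SR proteins (SRSF symbols), the heterogeneous nuclear ribonucleoproteins or hnRNPs (HNRNP symbols), the CLK and SRPK kinases, the SF3A and SF3B subunits and the U2AF subunits in SU-DHL-8 cells. SU-DHL-8 is a human line grown from a diffuse large B-cell lymphoma. Members were chosen by symbol, with earlier results of these data known. They are genes that carry such a name, are no pseudogene and had at least 60 counts summed over the 6 libraries. That gave 48 of the 65746 genes in the deposited count table, namely 11 SR protein genes, 20 hnRNP genes, 4 CLK genes, 2 SRPK genes, 3 SF3A genes, 6 SF3B genes and 2 U2AF genes. Another 7 genes fitted by name but fell under the minimum, namely SRSF12, HNRNPLL, HNRNPA1L3, HNRNPCL1, HNRNPCL2, HNRNPCL3 and HNRNPCL4, the highest of them HNRNPCL1 with 40 summed counts, while the lowest gene inside it was U2AF1 with 964. The names also matched 127 rows of hnRNP pseudogenes, of which 122 were at 0 in all libraries and 5 held 326 counts in all.

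The treated group was SU-DHL-8 cells given 15 µM beta-sitosterol, a plant sterol, for 24 h, and the control group was the same wild-type line given the solvent DMSO for 24 h. Each group had 3 libraries of total RNA, which the labels call replicate experiments. Nothing given says that they came from separately grown cultures, so a p-value here measures the spread between these samples. The whole study rests on 1 lymphoma line, and RNA was read from whole cultures, so fewer cells and less RNA per cell cannot be told apart.

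SR proteins carry an RNA recognition motif and a tail rich in arginine and serine. They bind exonic enhancers and help the spliceosome to recognise weak exons, and the kinases of the SRPK family in the cytoplasm and of the CLK family in the nucleus phosphorylate that tail and so set where they sit. Many hnRNPs act in the opposite sense, as silencers of exons, and also package, export and stabilise RNA. At the end of the intron the U2AF dimer reads the polypyrimidine tract and the AG, and SF3A and SF3B, parts of the U2 snRNP, hold the branch point.

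Libraries held 29359951, 26453101 and 27839421 counts after beta-sitosterol and 33536498, 31314104 and 35565163 counts in DMSO. Correlations of log2 CPM (a gene's counts relative to the scaled library total) across genes were 0.994 among the beta-sitosterol libraries, 0.972 to 0.991 among the DMSO libraries and 0.94 to 0.959 between the groups. DMSO replicate 2 stood apart from the other DMSO libraries, and results are given with and without it below. The B cell markers MS4A1, CD79A, CD79B, PAX5, CD22 and PTPRC summed to 1989 to 2113 CPM after beta-sitosterol and to 1724 to 2161 CPM in DMSO (here CPM of library totals). Behind these sums single markers differed, since PAX5 had 209, 198 and 214 CPM after beta-sitosterol against 619.7, 704 and 659.8 CPM in DMSO, while CD79A had 766, 737 and 790.0 CPM after beta-sitosterol against 333, 369 and 412 CPM in DMSO. The T cell markers CD3D, CD3E, CD4 and CD8A summed to at most 0.0359 CPM after beta-sitosterol and 0.128 CPM in DMSO, with 1 of the 4 at 0 throughout. Markers of monocytes, fibroblasts and epithelia summed to at most 8.30, 1.11 and 0.826 CPM after beta-sitosterol and to at most 6.83, 0.128 and 0.0894 CPM in DMSO.

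Genes for SR proteins and hnRNPs were mostly lower after beta-sitosterol and the CLK kinases split, while a single small subunit of SF3B, SF3B6, was 2.59-fold higher. The largest drops of the 48 were those of HNRNPA1, CLK2 and HNRNPD. All 48 genes passed the filter on low counts. At an edgeR adjusted p under 0.05, the meaning of called throughout, 25 of the 48 were lower (52.1%), 2 were higher (4.17%) and 21 did not pass. Across all 11525 genes tested, 40.8% were called, 21.8% lower and 19.0% higher. The median log2 fold change was -0.45 for the 48 genes and -0.039 for all genes tested, and 39 of the 48 lay below zero (81.2%, against 52.5% of all genes). Values of both groups did not overlap for 31 of the 48, with beta-sitosterol lower in 27 and higher in 4. Among all genes the groups did not overlap in 56.1%, with beta-sitosterol lower in 29.1% and higher in 27.0%. A drop of at least 1.5-fold was called for 17 of the 48 and for 16.3% of all genes, and HNRNPA1 was the 1 member lower by 2-fold or more, a size called for 6.37% of all genes.

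Leaving out DMSO replicate 2 gave 29 lower and 5 higher of the 48, with 30.3% and 26.4% of all genes called lower and higher. Without beta-sitosterol replicate 1, 2 or 3 the lower count was 15, 16 and 15, and 13.7%, 13.5% and 14.1% of all genes were then lower. Without DMSO replicate 1 it was 19, beside 17.4% of all genes, and 1 member was higher in each of these 4 fits. Longer genes were also lower across the whole table, with a Spearman correlation of -0.361 between the log2 fold change and the length of the principal transcript over 10996 genes, and of -0.155 among the 48. The length trend removed in the fits here was another, on the length that the deposited TPM divides by. That length follows the summed length of all transcripts of a gene, so the number of transcripts enters it. With this trend removed, 21 of the 48 were lower and 2 higher, beside 23.3% and 17.8% of all genes.

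**Figure D1:**
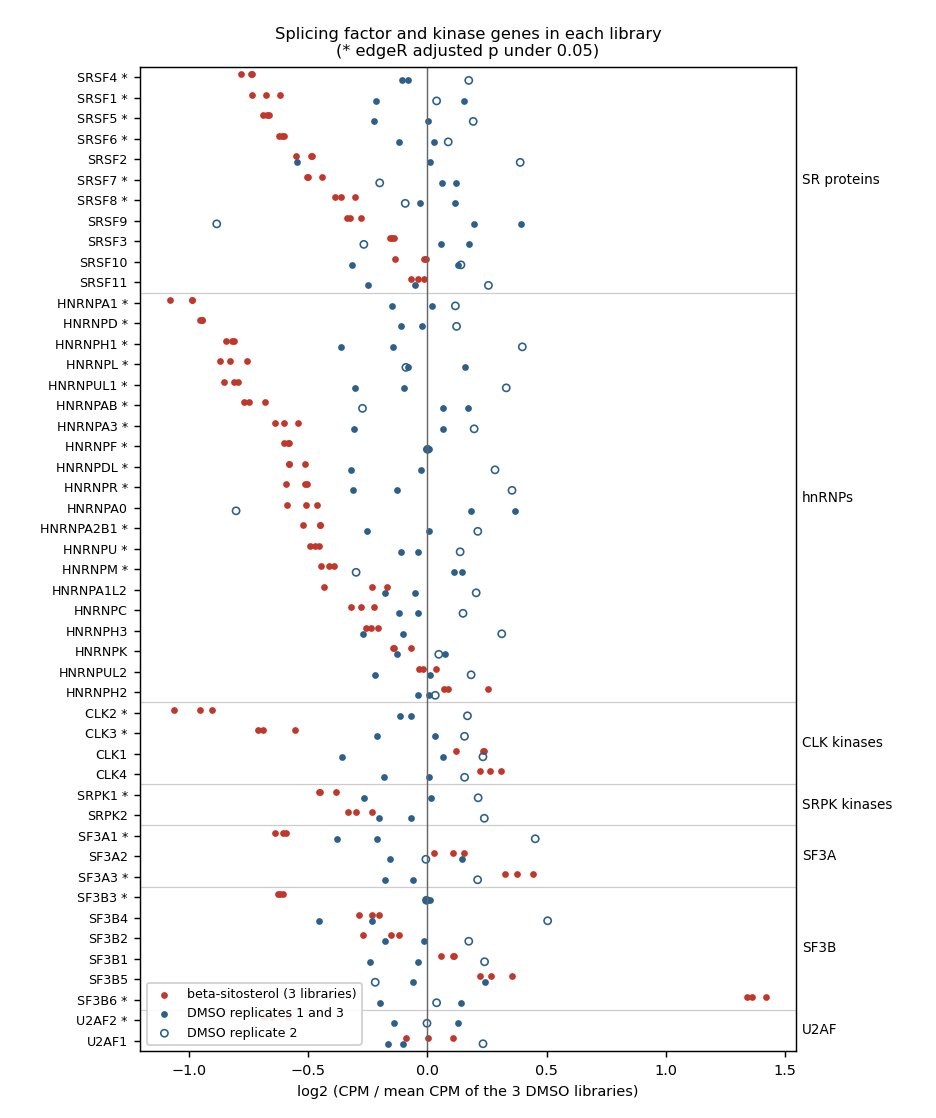
Each row is 1 of the 48 genes and each point 1 library, on an axis of log2 of CPM over the mean CPM of the 3 DMSO libraries. Red points are beta-sitosterol, filled blue points DMSO replicates 1 and 3, and open circles DMSO replicate 2. Red points form tight groups to the left of the blue ones for 27 genes and to the right for 4, while DMSO points spread more widely in 45 of 48 rows.

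The SR protein genes were lower or did not pass the test, and none was called higher. Of 11 genes, 6 were called lower (SRSF4, SRSF1, SRSF5, SRSF6, SRSF7 and SRSF8), and all 11 fold changes lay below zero, with a median of -0.48. That sign did not hold for SRSF10 and SRSF11 in every fit, since SRSF10 stood at 0.093 and SRSF11 at 0.10 with the length trend removed. Their summed level was 2646, 2676 and 2588 CPM after beta-sitosterol, against 3653, 3556 and 3198 CPM in DMSO, so each treated library was below every DMSO library. The mean sum was 0.760 of that in DMSO.

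SRSF4, a member of the subgroup with paired RNA-binding domains, had 126, 127 and 123 CPM after beta-sitosterol, against 196, 238 and 199.6 CPM in DMSO. Each treated library lay below every DMSO library, with a log2 fold change of -0.75 (edgeR SE 0.12, adjusted p = 0.00173). The gene lies on chromosome 1 at 29147743 to 29181900 and overlaps MECR, so some of its reads may belong to that gene. SRSF1, the founding SR protein and a factor in splice site choice, export and decay of mRNA, had 211, 220.1 and 203 CPM after beta-sitosterol, against 376, 347 and 291 CPM in DMSO. The treated values were the lower in all 3 libraries, with a log2 fold change of -0.68 (edgeR SE 0.13, adjusted p = 0.00354). SRSF5 and SRSF6 belong to the same subgroup as SRSF4. SRSF5 had 177, 179 and 179.9 CPM after beta-sitosterol, against 285, 326 and 244 CPM in DMSO, which gave a log2 fold change of -0.68 (edgeR SE 0.13, adjusted p = 0.00401). SRSF6, at chromosome 20, 43457896 to 43464243, had 422, 424 and 418 CPM after beta-sitosterol, against 655, 684 and 592 CPM in DMSO, which gave a log2 fold change of -0.61 (edgeR SE 0.11, adjusted p = 0.00266). Neither gene's groups overlapped.

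SRSF7 carries a zinc knuckle and takes part in mRNA export. It had 254, 266 and 255 CPM after beta-sitosterol, against 392, 314 and 376 CPM in DMSO. The groups did not overlap, with a log2 fold change of -0.48 (edgeR SE 0.12, adjusted p = 0.0125), but the call was lost without any 1 of the treated libraries (edgeR adjusted p = 0.0667, 0.0564 and 0.0657 without beta-sitosterol replicates 1, 2 and 3). SRSF8, a close relative of SRSF2, was the mildest drop among those called, with a log2 fold change of -0.35 (edgeR SE 0.11, adjusted p = 0.0389), and it did not pass without beta-sitosterol replicates 1, 2 and 3 (0.11, 0.15 and 0.16) or DMSO replicate 1 (0.10), all edgeR adjusted p.

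SRSF2, mutated in some blood cancers, and SRSF3, the smallest SR protein, did not pass. SRSF2 had 187, 187 and 179 CPM after beta-sitosterol, against 263, 342 and 179 CPM in DMSO. The treated libraries sat at the level of DMSO replicate 3, and the fit gave a log2 fold change of -0.51 (edgeR SE 0.21, adjusted p = 0.086). Without DMSO replicate 3 SRSF2 was called lower (-0.68, edgeR adjusted p = 0.00696), and without DMSO replicate 2 it was at -0.27 (edgeR adjusted p = 0.0743). SRSF3 had 443, 445 and 448 CPM after beta-sitosterol, against 557, 410.2 and 513 CPM in DMSO. DMSO replicate 2 lay below all treated libraries and the other DMSO libraries above them, with a log2 fold change of -0.15 (edgeR SE 0.13, adjusted p = 0.40). Without DMSO replicate 2 SRSF3 was called lower (-0.27, edgeR adjusted p = 0.00748). SRSF9 followed the same pattern, with treated values of 129, 125 and 124 CPM beside DMSO values of 179, 84.9 and 206 CPM. Its call also appeared without DMSO replicate 2 (-0.62, edgeR adjusted p = 3e-05). SRSF10 and SRSF11 had fold changes of -0.051 and -0.041 on the log2 scale, smaller than their errors of 0.14 each.

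Most hnRNP genes were called lower. Of 20 genes, 13 were called lower (65.0%) and none higher, with a median log2 fold change of -0.53. They also made up most of the reads of the 48 genes. The summed level was 11359, 11724 and 11609 CPM after beta-sitosterol, against 17595, 19205 and 16446 CPM in DMSO, and by library totals they made up 1.153% of counts after beta-sitosterol and 1.782% in DMSO. The ratio was 0.652, and it was 0.696 with HNRNPA1 left out, so the most changed gene did not carry the sum alone. Without beta-sitosterol replicates 1, 2 and 3 the number called lower was 7, 8 and 7, and with the length trend removed it was 10.

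HNRNPA1 binds exonic silencers and opposes SRSF1 in the choice between competing splice sites. It lies on chromosome 12 at 54280726 to 54287087 and had 1858, 1981 and 1977 CPM after beta-sitosterol, against 3972, 4255 and 3542 CPM in DMSO. The treated libraries were close to one another and far below every DMSO library, with a log2 fold change of -1.02 (edgeR SE 0.12, adjusted p = 0.000482). The mean level was 1939 ± 70.0 CPM after beta-sitosterol and 3923 ± 359 CPM in DMSO (SD, n = 3 each). Reads of HNRNPA1 could be shared with its near copies. How such reads were counted is not given, so the level of a copy cannot tell how many were shared. HNRNPA1L2, the 1 copy among the members, held 18.7, 22.5 and 21.5 CPM after beta-sitosterol and 24.4, 29.1 and 22.3 CPM in DMSO. Its fold change did not pass (-0.28 ± 0.15 SE, edgeR adjusted p = 0.17). HNRNPA1L2 was called lower with the length trend removed (-0.64, edgeR adjusted p = 0.0259) and with the trend of merged exon length removed (-0.90, edgeR adjusted p = 0.0116).

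HNRNPD, also known as AUF1, binds AU-rich elements and speeds the decay of the mRNAs that carry them. The gene is on chromosome 4 at 82352498 to 82373991 and had 600.1, 597 and 601 CPM after beta-sitosterol, against 1072, 1259 and 1139 CPM in DMSO. The treated libraries agreed closely and lay below all DMSO libraries, with a log2 fold change of -0.95 (edgeR SE 0.11, adjusted p = 0.000479). HNRNPL binds CA-rich RNA and controls CD45 exons in lymphocytes. It had 251, 258 and 271 CPM after beta-sitosterol, against 433, 430.2 and 511 CPM in DMSO, again with no overlap and with a log2 fold change of -0.82 (edgeR SE 0.11, adjusted p = 0.00102). HNRNPF, which binds runs of G, had 409.8, 416 and 414 CPM after beta-sitosterol, against 619, 622 and 624 CPM in DMSO. These 6 values gave a log2 fold change of -0.59 (edgeR SE 0.10, adjusted p = 0.0021), and here DMSO replicate 2 sat with the other DMSO libraries.

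HNRNPA2B1 packages nuclear RNA and takes part in its transport. It had 1633, 1715 and 1716 CPM after beta-sitosterol, against 2355, 2715 and 1966 CPM in DMSO. No treated library reached the lowest DMSO library, and the fit gave a log2 fold change of -0.47 (edgeR SE 0.14, adjusted p = 0.0252). The call was lost without beta-sitosterol replicate 1, 2 or 3 (edgeR adjusted p = 0.10, 0.0875 and 0.0854), without DMSO replicate 1 (0.0642) and with the length trend removed (0.0712). HNRNPU, a scaffold attachment factor that also tethers RNA to chromatin, had 919, 931 and 908 CPM after beta-sitosterol, against 1243, 1403 and 1182 CPM in DMSO. Its groups did not overlap, with a log2 fold change of -0.47 (edgeR SE 0.11, adjusted p = 0.0105). With the length trend removed the change shrank to -0.15 (edgeR adjusted p = 0.29), and without beta-sitosterol replicates 1, 2 and 3 the edgeR adjusted p was 0.0561, 0.0574 and 0.0611. HNRNPDL, a relative of HNRNPD, had 289.9, 303 and 289.7 CPM after beta-sitosterol, against 425, 527 and 347 CPM in DMSO. The fit gave a log2 fold change of -0.56 (edgeR SE 0.16, adjusted p = 0.021), and it did not pass without beta-sitosterol replicates 1, 2 and 3 (edgeR adjusted p = 0.0821, 0.0686 and 0.0819) or without DMSO replicate 1 (0.0564).

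Another 6 hnRNP genes were called lower. Their log2 fold changes were -0.82 for HNRNPH1 and for HNRNPUL1, -0.73 for HNRNPAB, -0.59 for HNRNPA3, -0.54 for HNRNPR and -0.42 for HNRNPM, with edgeR adjusted p from 0.00351 to 0.0409. The edgeR adjusted p without beta-sitosterol replicates 1, 2 and 3 and DMSO replicate 1 was 0.12, 0.10, 0.0988 and 0.0606 for HNRNPR and 0.14, 0.13, 0.12 and 0.12 for HNRNPM, which also did not pass without DMSO replicate 3 (0.11). HNRNPA3 did not pass without beta-sitosterol replicate 1 (0.0574) or 3 (0.0533), both edgeR adjusted p. With the length trend removed HNRNPR (0.0827) and HNRNPM (0.11) did not pass, again edgeR adjusted p, and on the TPM scale HNRNPAB (0.0521) and HNRNPM (0.15) did not, both limma adjusted p. HNRNPM also did not pass with RLE factors (edgeR adjusted p = 0.0579). Without DMSO replicate 2 HNRNPR was at -0.33 (edgeR adjusted p = 0.00385). HNRNPH1 and HNRNPH2 encode close relatives that bind runs of G. HNRNPH2 was not called (0.14 ± 0.11 SE, edgeR adjusted p = 0.35), and it stood at -0.28 with the length trend removed (edgeR adjusted p = 0.16). HNRNPH1 had 593, 596 and 583 CPM after beta-sitosterol, against 945, 1378 and 814 CPM in DMSO, whereas HNRNPH2 had 50.2, 57.1 and 50.8 CPM after beta-sitosterol, against 48.0, 48.9 and 46.5 CPM in DMSO. Within a library HNRNPH1 stood at 11.8, 10.4 and 11.5 times the CPM of HNRNPH2 after beta-sitosterol, against 19.7, 28.2 and 17.5 times in DMSO. This pair and the other within-library ratios below were chosen after their values were seen.

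The 7 hnRNP genes that did not pass included HNRNPC, which binds tracts of U, and HNRNPK, which binds tracts of C. HNRNPC had 938, 1002 and 965 CPM after beta-sitosterol, against 1138, 1299 and 1077 CPM in DMSO. Treated libraries were lower in all 3, yet the change was small (-0.27 ± 0.12 SE, edgeR adjusted p = 0.0891), and it was called without DMSO replicate 2 (-0.20, edgeR adjusted p = 0.0315). HNRNPK did not pass (-0.12 ± 0.11 SE, edgeR adjusted p = 0.42), nor did HNRNPH3 (-0.23 ± 0.16 SE, edgeR adjusted p = 0.26) or HNRNPUL2 (-0.0050 ± 0.13 SE, edgeR adjusted p = 0.98). The ratio of HNRNPA1 to HNRNPK was 2.04, 2.06 and 2.17 after beta-sitosterol and 3.75, 4.09 and 3.84 in DMSO, so these genes changed unequally whatever scale is put on the library. HNRNPA0 was another gene where DMSO replicate 2 decided the outcome. Its treated values were 383, 351 and 371 CPM and its DMSO values 600.3, 303 and 682 CPM. Its log2 fold change did not pass with all libraries (-0.52 ± 0.26 SE, edgeR adjusted p = 0.14) and was -0.80 (edgeR adjusted p = 1.12e-06) without DMSO replicate 2.

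**Figure D2:**
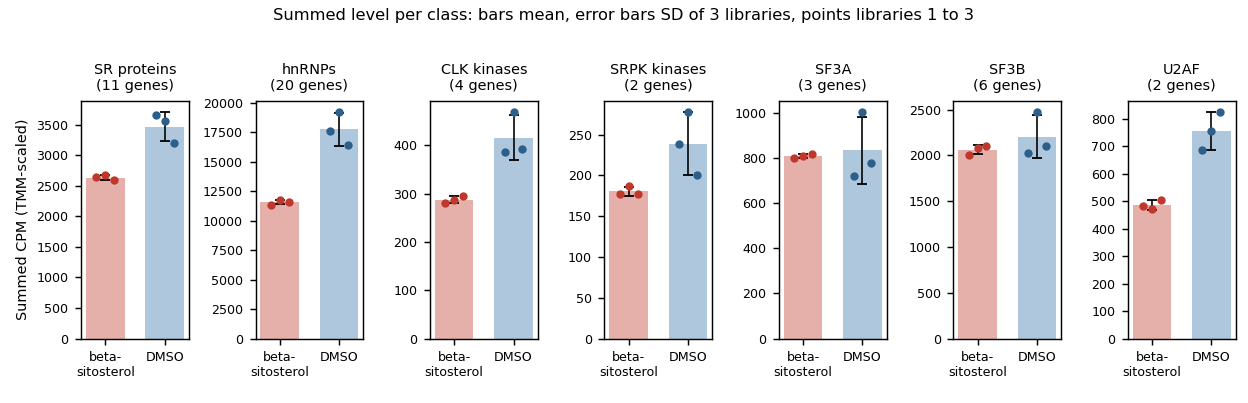
Bars give the mean summed CPM of each class in beta-sitosterol (red) and DMSO (blue) libraries, error bars the SD of 3 libraries, and points libraries 1 to 3. Each panel has its own axis, starting at 0. SR proteins, hnRNPs, CLK kinases, SRPK kinases and U2AF sat lower in all beta-sitosterol libraries, whereas the SF3A and SF3B means differed by less than 1 SD of DMSO.

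The CLK kinases split. CLK2 and CLK3 were called lower and CLK1 and CLK4 were not called, standing slightly above DMSO. CLK2, at chromosome 1, 155262868 to 155273504, had 88.1, 95.1 and 98.5 CPM after beta-sitosterol, against 170.1, 207 and 175 CPM in DMSO. Treated libraries did not reach the DMSO range, with a log2 fold change of -0.97 (edgeR SE 0.12, adjusted p = 0.000673), and the mean level was 93.9 ± 5.32 CPM after beta-sitosterol and 184 ± 19.8 CPM in DMSO (SD, n = 3 each). CLK3 had 87.4, 88.5 and 97.3 CPM after beta-sitosterol, against 123, 159 and 146 CPM in DMSO. It was also lower without overlap, with a log2 fold change of -0.65 (edgeR SE 0.13, adjusted p = 0.00512), although the call was lost when the trend with merged exon length was removed (-0.24, edgeR adjusted p = 0.17). CLK1, whose own pre-mRNA is held back in the nucleus with introns until stress or low kinase activity releases it, had 87.4, 87.7 and 81.0 CPM after beta-sitosterol, against 77.8, 87.5 and 58.1 CPM in DMSO. The groups overlapped at DMSO replicate 2, and the fit gave a log2 fold change of 0.20 (edgeR SE 0.16, adjusted p = 0.35). CLK4, the closest relative of CLK1, had 16.8, 16.3 and 17.3 CPM after beta-sitosterol, against 14.1, 15.6 and 12.4 CPM in DMSO. All treated values were above all DMSO values, but the change did not pass (0.26 ± 0.14 SE, edgeR adjusted p = 0.16).

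Both genes were called higher without DMSO replicate 2, CLK1 at 0.32 (edgeR adjusted p = 0.0285) and CLK4 at 0.34 (edgeR adjusted p = 0.0336). CLK4 was also called with the length trend removed (0.44, edgeR adjusted p = 0.0259). On the deposited TPM scale with a pseudocount of 1, by contrast, CLK1 lay at -0.039. The ratio of CLK1 to CLK2 does not depend on the library's scale. It was 0.993, 0.922 and 0.822 after beta-sitosterol, against 0.458, 0.423 and 0.332 in DMSO, so the groups were well apart. Counted per kilobase of the principal transcript, CLK2 averaged 48.5 CPM per kb after beta-sitosterol and 95.1 in DMSO, and CLK3 49.4 after beta-sitosterol and 77.4 in DMSO. CLK1 averaged 45.2 CPM per kb after beta-sitosterol and 39.5 in DMSO, and CLK4 6.56 after beta-sitosterol and 5.46 in DMSO. CLK1, CLK2 and CLK3 thus stood close together after beta-sitosterol, while CLK2 was the highest of the 4 in DMSO.

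Both SRPK genes had lower means after beta-sitosterol. SRPK1, the main cytoplasmic kinase of SR proteins, had 144, 151 and 144 CPM after beta-sitosterol, against 199, 229 and 164 CPM in DMSO. No treated library reached the DMSO range, and the fit gave a log2 fold change of -0.43 (edgeR SE 0.14, adjusted p = 0.0374). That call was lost without beta-sitosterol replicates 1, 2 and 3 (edgeR adjusted p = 0.13, 0.11 and 0.13), without DMSO replicate 1 (0.0903) and with the length trend removed (0.0975). SRPK2, its relative with high expression in neurons, had 33.1, 35.5 and 33.9 CPM after beta-sitosterol, against 39.7, 49.1 and 36.1 CPM in DMSO. The groups did not overlap, but the change did not pass, with a log2 fold change of -0.29 (edgeR SE 0.14, adjusted p = 0.14).

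The promoters of 4 genes are shown, of CLK2 and CLK1 as kinases of 1 family that differed in their calls, of HNRNPD as the hnRNP gene with the smallest p, and of SF3B6 as the gene with the largest rise of the 48. Each line holds the 250 bases before the annotated start, 5′ to 3′ on the gene's strand, from RefSeq on GRCh38.p14. The regions are chr1:155273505-155273754 for CLK2, chr2:200864659-200864908 for CLK1 (the first of 2 listed starts), chr4:82373992-82374241 for HNRNPD and chr2:24076327-24076576 for SF3B6, all on the minus strand. Capitals mark the E-box CACGTG, the palindrome read by MYC with MAX and by related factors, or the ETS motif CCGGAAGT on either strand.
CLK2: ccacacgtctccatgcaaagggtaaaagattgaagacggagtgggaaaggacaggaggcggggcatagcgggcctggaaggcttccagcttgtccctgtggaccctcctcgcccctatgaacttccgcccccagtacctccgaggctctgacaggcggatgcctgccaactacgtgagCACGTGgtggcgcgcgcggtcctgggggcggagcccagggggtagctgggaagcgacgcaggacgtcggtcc
CLK1: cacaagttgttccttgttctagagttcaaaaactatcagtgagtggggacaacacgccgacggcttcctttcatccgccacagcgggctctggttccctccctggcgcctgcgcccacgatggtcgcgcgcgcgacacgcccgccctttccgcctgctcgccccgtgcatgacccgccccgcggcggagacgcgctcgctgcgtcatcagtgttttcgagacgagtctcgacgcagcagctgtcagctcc
HNRNPD: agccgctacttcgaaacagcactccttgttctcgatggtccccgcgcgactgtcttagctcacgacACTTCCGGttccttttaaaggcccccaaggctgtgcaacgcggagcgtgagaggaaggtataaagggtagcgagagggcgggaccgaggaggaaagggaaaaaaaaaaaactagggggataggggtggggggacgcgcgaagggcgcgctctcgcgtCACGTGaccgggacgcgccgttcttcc
SF3B6: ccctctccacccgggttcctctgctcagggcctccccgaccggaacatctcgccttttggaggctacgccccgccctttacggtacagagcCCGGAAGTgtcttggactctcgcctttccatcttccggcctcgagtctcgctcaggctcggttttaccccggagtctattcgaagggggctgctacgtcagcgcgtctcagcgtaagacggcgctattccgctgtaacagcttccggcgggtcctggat

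CLK2 held the E-box starting at -72, HNRNPD an E-box at -27 and an ETS motif at -184, and SF3B6 an ETS motif at -159, counted from the start. CLK1 held neither set of letters in this window. Of the 48 genes, 45 had a promoter in the table, and HNRNPA1, SRSF2 and SF3B3 had none there. The E-box occurred in 9 of the 45 (20%), in 11.5% of 9086 tested genes and in 7.73% of all 27305 genes with a promoter. The ETS motif occurred in 10 of 45 (22.2%), in 8.66% of tested genes and in 4.13% of all genes. The AP-1 motif TGANTCA, read by JUN and FOS proteins, occurred in 1 of 45 (2.22%), in 6.02% of tested genes and in 8.06% of all genes. Among the called genes, the E-box was in 5 of 23 lower genes with a promoter and the ETS motif in 5 lower and both higher genes. A match of letters is a description of the sequence and not a binding site.

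SF3A and SF3B each held 1 gene called higher and 1 called lower. Summed levels were 799.8, 810.2 and 822 CPM after beta-sitosterol and 722, 1006 and 780.3 CPM in DMSO for SF3A, and 2008, 2078 and 2101 CPM after beta-sitosterol and 2028, 2473 and 2108 CPM in DMSO for SF3B. Both sums differed by less than the spread of the DMSO libraries. Of 9 genes, SF3B6 and SF3A3 were called higher and SF3B3 and SF3A1 lower. By class that was 33.3% in each direction for SF3A and 16.7% for SF3B. Across all genes tested, 19.0% were called higher and 21.8% lower. With so few genes, these shares do not set SF3A and SF3B apart from all genes.

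SF3B6, also called p14, is the small subunit that sits beside the branch point adenosine, bound to SF3B1. The gene is at chromosome 2, 24067586 to 24076326, and had 116, 121 and 114 CPM after beta-sitosterol, against 49.7, 46.4 and 39.4 CPM in DMSO. All treated libraries were well above the DMSO range, with a log2 fold change of 1.37 (edgeR SE 0.13, adjusted p = 0.000206). The mean was 117 ± 3.35 CPM after beta-sitosterol and 45.2 ± 5.27 CPM in DMSO (SD, n = 3 each). It had the largest fold change of the 48 and was called under all 17 alternatives run. SF3B3, a large subunit of beta-propellers related to DDB1, had 354, 351 and 357 CPM after beta-sitosterol, against 541, 541 and 547 CPM in DMSO. Each group was tight and well apart from the other, with a log2 fold change of -0.62 (edgeR SE 0.10, adjusted p = 0.00174). The ratio of SF3B6 to SF3B3 was 0.328, 0.344 and 0.320 after beta-sitosterol and 0.092, 0.0857 and 0.0721 in DMSO.

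SF3B1, the largest subunit and a frequent target of mutation in blood cancers, had 542, 563 and 561 CPM after beta-sitosterol, against 508, 616 and 441 CPM in DMSO. The treated libraries lay inside the DMSO range, with a log2 fold change of 0.091 (edgeR SE 0.14, adjusted p = 0.62), and a small rise was called without DMSO replicate 2 (0.22, edgeR adjusted p = 0.0318). Of the other subunits, SF3B2, SF3B4 and SF3B5 did not pass, at -0.18, -0.24 and 0.28 on the log2 scale. SF3B5 was the most sensitive of these to gene length, since the value was -0.28 (edgeR adjusted p = 0.0882) with the length trend removed and -0.49 (edgeR adjusted p = 0.0138) with the trend of merged exon length removed, but 0.46 (edgeR adjusted p = 0.0111) without DMSO replicate 3. SF3B4 had treated values of 293, 305 and 311 CPM beside DMSO values of 262, 508 and 305 CPM, and its sign turned without DMSO replicate 2, at 0.092.

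SF3A3 and SF3A1 are partners in the 3-subunit SF3A complex, which joins the U2 snRNP before the branch point is bound. SF3A3 had 334, 362 and 346 CPM after beta-sitosterol, against 256, 309 and 236 CPM in DMSO. Treated libraries were above all DMSO libraries, with a log2 fold change of 0.38 (edgeR SE 0.13, adjusted p = 0.0428). SF3A1 had 230.1, 225 and 232 CPM after beta-sitosterol, against 269, 479 and 302 CPM in DMSO. It was lower in all treated libraries, with a log2 fold change of -0.61 (edgeR SE 0.20, adjusted p = 0.0414), and DMSO replicate 2 stood far above the rest. Without DMSO replicate 2 SF3A1 was at -0.33 (edgeR adjusted p = 0.00367), and it did not pass with RLE factors (edgeR adjusted p = 0.0516), with the trend of merged exon length removed (edgeR adjusted p = 0.0685) or in limma-voom (adjusted p = 0.0549). Neither call held without a treated library. The edgeR adjusted p without beta-sitosterol replicates 1, 2 and 3 was 0.11, 0.16 and 0.13 for SF3A3 and 0.11, 0.12 and 0.11 for SF3A1. SF3A3 was also lost without DMSO replicate 1 (0.12), without DMSO replicate 3 (0.0569) and with the length trend removed (0.11), all edgeR adjusted p. The third subunit, SF3A2, stood at 0.097 on the log2 scale (edgeR adjusted p = 0.54).

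U2AF2, the large subunit that binds the polypyrimidine tract, was called lower. It lies on chromosome 19 at 55655035 to 55674716 and had 477, 465 and 499 CPM after beta-sitosterol, against 680.4, 748 and 819 CPM in DMSO. Treated values were all below DMSO values, with a log2 fold change of -0.64 (edgeR SE 0.11, adjusted p = 0.00285). U2AF1, the small subunit that reads the AG at the end of the intron, had 5.63, 4.92 and 5.24 CPM after beta-sitosterol, against 4.67, 6.15 and 4.88 CPM in DMSO. The groups overlapped throughout, with a log2 fold change of 0.010 (edgeR SE 0.18, adjusted p = 0.97). Its reading is uncertain, because GRCh38 carries a near-identical copy on chromosome 21. That copy, ENSG00000275895, is in the table under the name LOC102724594 and was listed at 0 in all 6 libraries, and the related U2AF1L4 had 93, 67 and 85 counts after beta-sitosterol and 80, 120 and 81 in DMSO. How reads that fit both copies were counted is not given in the sources used here.

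Levels of different genes can be set side by side only per length, as CPM per kilobase of the principal transcript in GENCODE 29. Where several transcripts of a gene were tagged as principal, the longest was used. HNRNPA1 was divided by 4121 bases and HNRNPC by 1714, and their order depends on these lengths. After beta-sitosterol HNRNPC was the highest of the 48, at 565 ± 18.7 CPM per kb, and HNRNPA2B1 at 483 ± 13.7 and HNRNPA1 at 470.4 ± 17.0 differed by less than their spread (SD, n = 3). In DMSO HNRNPA1 was the highest, at 951.9 ± 87.1 CPM per kb, ahead of HNRNPC at 683 ± 66.9 and HNRNPA2B1 at 671 ± 107, and those last 2 differed by less than their spread. The deposited TPM gives another order, and its listed values sum to 57.8%, 57.0% and 57.6% of a full TPM total after beta-sitosterol, against 64.6%, 39.5% and 69.2% in DMSO. On that scale the order starts with SF3B5 at 1701 TPM after beta-sitosterol and 1742 TPM in DMSO. The length that the deposited TPM divides by matched the summed length of all GENCODE 29 transcripts of the gene within 1% for 95.3% of 11324 genes, against 1.4% for merged exon length. Genes with many transcripts are therefore set low on that scale, and HNRNPH1, with 50 transcripts of 53570 bases in all, had 42.4 TPM after beta-sitosterol and 87.7 TPM in DMSO. This constant does not enter comparisons of 1 gene between libraries, except where the length trend was removed. The unequal sums do enter them on the TPM scale.

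DMSO replicate 2 was the highest of the DMSO libraries for 32 of the 48 genes, the lowest for 9 and the middle one for 7. The median range of a gene over 3 libraries was 0.082 log2 units after beta-sitosterol and 0.401 in DMSO for the 48, against 0.165 after beta-sitosterol and 0.531 in DMSO for all genes tested. Changes gained without DMSO replicate 2 were HNRNPA0, HNRNPC, SRSF3 and SRSF9 lower and CLK1, CLK4 and SF3B1 higher, and none of the 27 calls was lost.

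**Figure D3:**
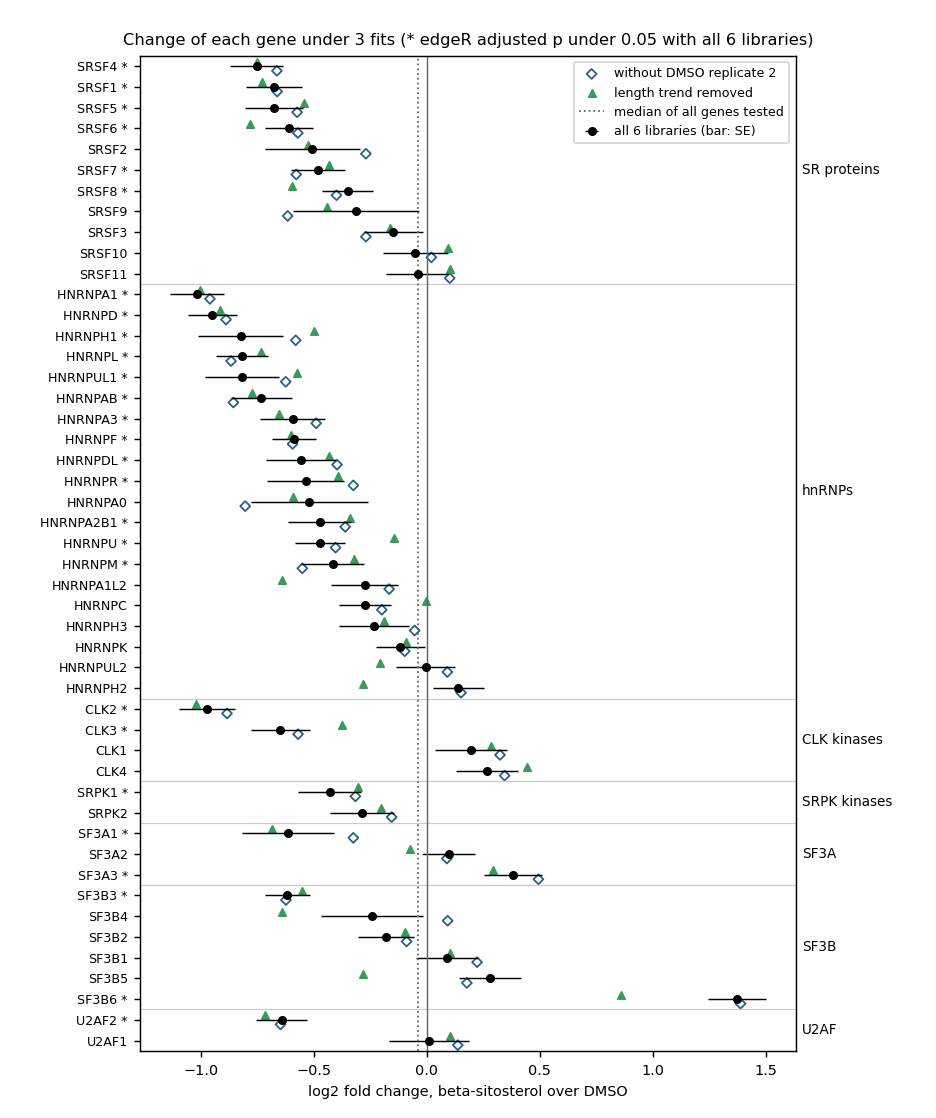
Rows are the 48 genes and the axis is the log2 fold change, beta-sitosterol over DMSO. Black points with SE bars use all 6 libraries, open blue diamonds leave out DMSO replicate 2, green triangles have the length trend removed, and the dotted line is the median of all genes. For SF3B6 all 3 markers lie far to the right, and for HNRNPA1, HNRNPD and CLK2 far to the left, while with the length trend removed HNRNPU moves near zero and SF3B5 across it.

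Other splicing genes, taken from lists by role, were examined beside the 48, where 21.8% of all genes were called lower and 19.0% higher. Of 24 SR-related proteins, 16 were called lower and none higher, with a median of -0.65. TRA2B, which binds GAA-rich enhancers with SR proteins, had 238, 245 and 244 CPM after beta-sitosterol, against 471, 584 and 430.1 CPM in DMSO, and the fit gave a log2 fold change of -1.03 (edgeR SE 0.13, adjusted p = 0.000747). ARGLU1, an arginine- and glutamate-rich coactivator, had 167, 159 and 166 CPM after beta-sitosterol, against 281, 295 and 278 CPM in DMSO, and the fit gave a log2 fold change of -0.80 (edgeR SE 0.10, adjusted p = 0.000673). Of 28 other hnRNP-type RNA-binding proteins, 18 were called lower and 2 higher (1 without any 1 treated library or DMSO replicate 3), with a median of -0.56. MATR3, among the higher ones, had low counts, with means of 3.03 CPM after beta-sitosterol and 1.85 CPM in DMSO. PTBP1, also known as hnRNP I, binds pyrimidine tracts and represses exons. It had 560.3, 537 and 551 CPM after beta-sitosterol, against 876, 1028 and 979 CPM in DMSO, with a log2 fold change of -0.81 (edgeR SE 0.11, adjusted p = 0.0009), and RBMX, or hnRNP G, was also lower (-0.79 ± 0.12 SE, edgeR adjusted p = 0.00132). The lower counts ranged from 11 to 17 for SR-related and from 13 to 20 for hnRNP-type genes when 1 library at a time was left out.

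Of 13 U1, U2 and Sm proteins, 7 were called higher and 2 lower, with a median of 0.60. SNRPN, among the higher ones, had low counts, with means of 2.27 CPM after beta-sitosterol and 0.652 CPM in DMSO. The U2 proteins among them were SNRPB2, which was called higher, and SNRPA1, which was not called. Higher calls numbered 5 with the length trend removed, 4 with the trend of merged exon length removed and 1 on the deposited TPM scale (log2 with a pseudocount of 1). The 2 that fell, SNRPA and SNRNP70, are the U1 proteins A and 70K, which bind stem loops of the U1 snRNA. SNRPA had 88.1, 81.8 and 88.0 CPM after beta-sitosterol, against 152, 195 and 189 CPM in DMSO, with a log2 fold change of -1.06 (edgeR SE 0.13, adjusted p = 0.000619). SNRNP70 had 362, 345 and 384 CPM after beta-sitosterol, against 609, 678 and 765 CPM in DMSO, with a log2 fold change of -0.91 (edgeR SE 0.12, adjusted p = 0.000837). Of 8 LSm proteins, which form the ring on U6 snRNA and on decaying mRNA, 3 were higher and 1 lower, a call on LSM2 that was lost without beta-sitosterol replicate 1 or 3, with 0 lower then. LSM3 averaged 121 ± 7.90 CPM after beta-sitosterol and 33.4 ± 10.3 CPM in DMSO (SD, n = 3 each), with a log2 fold change of 1.86 (edgeR SE 0.23, adjusted p = 0.000557), and LSM5 was also higher (1.06 ± 0.18 SE, edgeR adjusted p = 0.00227). On the TPM scale 1 LSm gene was called higher, and LSM5 did not pass (adjusted p = 0.0856 in limma). Of 17 genes of the PRP19 complex and its partners, which activate the spliceosome, 7 were higher and none lower, among them BUD31 (1.11 ± 0.14 SE, edgeR adjusted p = 0.000654) and PLRG1 (0.88 ± 0.12 SE, edgeR adjusted p = 0.000851). That count fell to 3 without beta-sitosterol replicate 1, 2 or 3 and to 4 without DMSO replicate 1. On the TPM scale 1 of the 17 was higher and 1 lower, and PLRG1 did not pass (adjusted p = 0.11 in limma).

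Some of the remaining lists were mixed. Of all genes tested, 21.8% were called lower and 19.0% higher with all libraries. These shares were 30.3% and 26.4% without DMSO replicate 2, 22% and 21.9% without DMSO replicate 3, and 17.4% and 15.2% without DMSO replicate 1. Without 1 treated library they ran from 13.5% to 14.1% lower and from 12.7% to 12.8% higher. Of 16 U5 and tri-snRNP proteins, 3 were higher, with TXNL4A first (0.78 ± 0.12 SE, edgeR adjusted p = 0.0015), and 4 lower, with the helicase DDX23 first (-0.60 ± 0.11 SE, edgeR adjusted p = 0.00287). The lower count was 2, 1 and 3 without beta-sitosterol replicates 1, 2 and 3, and 7 without DMSO replicate 2, and 5 were higher without DMSO replicate 2 or 3. Of 11 splicing helicases 4 were lower and none higher, led by DDX17 (-0.80 ± 0.11 SE, edgeR adjusted p = 0.000807) and DDX42 (-0.56 ± 0.11 SE, edgeR adjusted p = 0.00473), and 8 were lower without DMSO replicate 2, but 2 without any 1 of the treated libraries or DMSO replicate 1. Of 14 partners of the branch point and the end of the intron, 2 were higher and 4 lower, with CHERP (-1.16 ± 0.21 SE, edgeR adjusted p = 0.00326) and RBM10 (-0.60 ± 0.12 SE, edgeR adjusted p = 0.00532) first. Without DMSO replicate 2 they were 6 higher and 5 lower, and 2 were lower without any 1 treated library, with 0, 0 and 1 higher without beta-sitosterol replicates 1, 2 and 3 and 1 higher without DMSO replicate 1 or 3. Of 22 other kinases, phosphatases and carriers of SR proteins, 2 were higher and 8 lower, with DYRK4 (0.79 ± 0.12 SE, edgeR adjusted p = 0.00149) and CDK13 (-0.79 ± 0.13 SE, edgeR adjusted p = 0.00203) first. HIPK2, also called higher, was near the floor, with means of 0.519 CPM after beta-sitosterol and 0.110 CPM in DMSO. The lower count of this list was 4, 5 and 5 without beta-sitosterol replicates 1, 2 and 3 and 5 without DMSO replicate 1 or with the length trend removed.

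**Figure D4:**
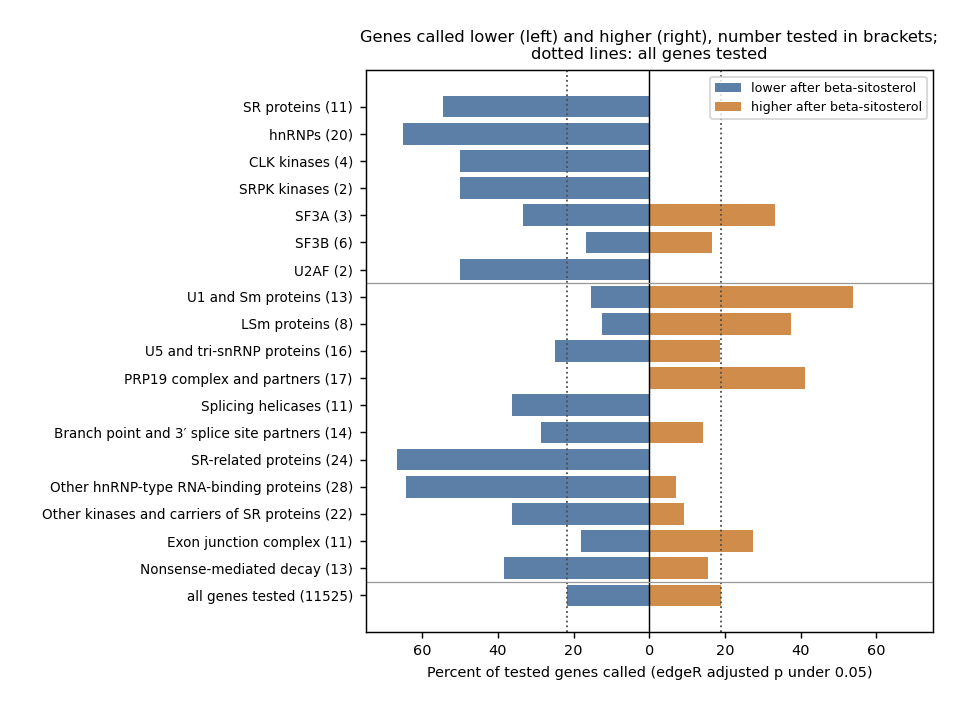
Bars give the percent of tested genes called lower (blue, left) and higher (orange, right) after beta-sitosterol, for the 7 classes above, for lists of other splicing genes and for all 11525 genes, with dotted lines at 21.8% and 19.0%. Lower calls lead among SR proteins, hnRNPs, CLK and SRPK kinases, U2AF, SR-related and hnRNP-type proteins. They also lead among U5 and tri-snRNP proteins, helicases, branch point partners, other kinases and carriers, and nonsense-mediated decay. Higher calls lead among U1 and Sm, LSm, PRP19 complex and exon junction complex genes. For SF3A and SF3B the shares are equal. The U1 and Sm list also holds SNRPB2 and SNRPA1 of the U2 snRNP. The list of kinases and carriers also holds phosphatases, and the exon junction complex list also holds mRNA export genes. The nonsense-mediated decay list also holds ETF1, GSPT1 and GADD45A.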

How the data were processed

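RNA from 6 samples was sequenced, 3 with beta-sitosterol and 3 with DMSO, grouped by the titles in the labels. Of the deposited tables, 1 gives raw counts, whole numbers of reads for each gene as the authors obtained them. The other gives TPM, which the authors derived for the same genes with a length and a library constant. The submitters' processing notes list STAR 2.7.10, fastp 0.23.2, StringTie 2.2.1 and featureCounts 2.0.1, and the build GRCh38. No source used here gives the annotation, the use of strand or the fate of multi-mapping reads. Of the 48 genes, 23 overlap another RefSeq gene, so reads in those overlaps are uncertain.

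Of 65807 rows, 61 repeated a symbol and were left out (2 held counts), and 47323 of the remaining 65746 genes were at 0 throughout. The test was edgeR 4.0.16 (quasi-likelihood F, two-sided, in R 4.3.3) with TMM factors, the filterByExpr filter and treatment as the model's single term. P-values were adjusted by Benjamini-Hochberg over 11525 genes, at a threshold of 0.05. The SE was derived from the log2 fold change and F, and levels are TMM-scaled CPM, apart from marker genes (CPM of library totals). In simulated counts for these 11525 genes, 200 of them changed, edgeR recovered 67% of 2-fold and 96% of 4-fold changes, with 5.23% false calls, drawing both groups from 1 dispersion per gene although DMSO libraries vary more here.

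Members and lists were chosen with earlier results of these data known. Named are, per class, the 4 members with the smallest p among those called and 17 fixed genes, with values in each library, and the 2 genes with the smallest p of each other list, some by fold change or group mean alone. HNRNPH1, HNRNPH2, HNRNPC, HNRNPA0, SRSF9 and SF3B4 were added after their values were seen. Alternatives were RLE factors, library totals, no filter, 1 CPM in 3 libraries, DESeq2 1.42.0, limma-voom and limma-trend (limma 3.58.1) of TPM on a log2 scale (pseudocount 1 or 0.1), the length trend removed, the replicate number as a block, and each library left out. No 2 libraries of a group agreed within sampling noise. Positions and promoters are RefSeq's on GRCh38.p14, matched by symbol. A single marker gene is not reported here.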

Additional observations from a re-analysis of the deposited data

How the results depend on the processing

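Of the 27 called genes, 14 were called under all 17 alternatives, namely CLK2, HNRNPA1, HNRNPD, HNRNPF, HNRNPH1, HNRNPL, HNRNPUL1, SF3B3, SF3B6, SRSF1, SRSF4, SRSF5, SRSF6 and U2AF2. No called member changed sign under them. Leaving out each library gave 15 to 29 members lower and 1 to 5 higher, and 1593 to 3549 genes lower and 1501 to 3091 higher in all. Members called higher were 1 with library totals, with no filter, on log2(TPM + 1) and on log2(TPM + 0.1), SF3A3 being the one lost. On those TPM scales 713 and 691 of all genes were called higher, where the median log2 fold change of all genes moved from -0.039 to -0.194 and -0.264, and the share of calls that were higher fell to 24.3% and 23.5%, against 46.5% on counts. Log2 ratios of summed levels were -0.71 for SR proteins, -0.87 for hnRNPs, -0.88 for CLK kinases, -0.65 for SRPK kinases, -0.24 for SF3A, -0.89 for U2AF and -0.040 for SF3B in deposited TPM, against -0.39, -0.61, -0.53, -0.39, -0.030, -0.63 and -0.090 in CPM, so that SF3B alone of the 7 was nearer to 0 in TPM. Listed TPM sum to 57.0% to 57.8% of a full total after beta-sitosterol and to 64.6%, 39.5% and 69.2% in DMSO replicates 1 to 3, so TPM ratios between libraries carry these unequal sums, whose part in the differences was not tested.

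Same-numbered libraries deviated together only weakly, with correlations of 0.039, 0.101 and 0.154, and each treated library correlated best with its own number. These values do not settle whether the replicate numbers pair the libraries. With the replicate block, 23 members were lower and 2 higher of 4743 genes called. HNRNPM and SRSF8 did not pass with it.

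Values that changed sign were all from genes that were not called, apart from MAGOH. On log2(TPM + 1) and log2(TPM + 0.1) they were CLK1 (-0.039 and -0.040), SF3A2 (-0.15 and -0.16), SF3B1 (-0.15 and -0.15), U2AF1 (-0.12 and -0.22) and HNRNPH2 (-0.12 and -0.12). With the length trend removed they were SF3A2 (-0.076), SF3B5 (-0.28), SRSF10 (0.093), SRSF11 (0.10) and HNRNPH2 (-0.28). With merged exon length, an alternative added after the data were seen, they were SF3A2 (-0.11), SF3B2 (0.022), SF3B5 (-0.49), SRSF10 (0.175), SRSF11 (0.12), HNRNPH2 (-0.23), HNRNPUL2 (0.027) and MAGOH (-0.011). Leaving out 1 library at a time, the values ran from -0.15 to 0.020 for SRSF10, -0.11 to 0.10 for SRSF11, -0.43 to 0.092 for SF3B4, -0.071 to 0.14 for U2AF1 and -0.066 to 0.091 for HNRNPUL2. HNRNPUL2 was also at 0.026 with RLE factors, 0.0041 with no filter, 0.0074 with 1 CPM, 0.026 with DESeq2, 0.0047 with limma-voom and 0.0040 with the replicate block. The length trend was removed on a fitted curve of the length behind the deposited TPM, or of merged exon length. A change lost with it was not tested for its cause.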

Other observations

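Genes that act on spliced mRNA were mixed after beta-sitosterol. Of 11 genes of the exon junction complex and of mRNA export, 3 were called higher and 2 lower, against 19.0% and 21.8% of all genes. ALYREF, an mRNA export adaptor, averaged 213 ± 4.49 CPM after beta-sitosterol and 406 ± 95.3 CPM in DMSO (SD, n = 3 each), with a log2 fold change of -0.93 (edgeR SE 0.17, adjusted p = 0.00299). MAGOH, a core subunit of the exon junction complex, averaged 97.2 ± 2.50 CPM after beta-sitosterol and 66.1 ± 3.41 CPM in DMSO, with a log2 fold change of 0.56 (edgeR SE 0.11, adjusted p = 0.00446). With the length trend removed MAGOH stood at 0.18 (edgeR adjusted p = 0.23). The higher count was 5 without DMSO replicate 2, and the lower count was 1 without any 1 treated library or DMSO replicate 1 or 3.

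Of 13 genes listed for nonsense-mediated decay, 2 were higher (15.4%) and 5 lower (38.5%), against 19.0% and 21.8% of all genes. Beside UPF and SMG genes, this list holds ETF1, GSPT1 and the target GADD45A. GSPT1 was among the lower genes and GADD45A among the higher. SMG6, the endonuclease of that pathway, had 21.4, 21.7 and 22.9 CPM after beta-sitosterol, against 44.7, 44.8 and 51.7 CPM in DMSO. All treated libraries were lower, with a log2 fold change of -1.10 (edgeR SE 0.12, adjusted p = 0.000422). GADD45A, a stress gene whose mRNA is a target of the pathway, had 64.0, 61.3 and 60.5 CPM after beta-sitosterol, against 26.8, 20.2 and 32.3 CPM in DMSO. All treated libraries were higher, with a log2 fold change of 1.23 (edgeR SE 0.17, adjusted p = 0.00103). The lower count was 3, 2 and 2 without beta-sitosterol replicates 1, 2 and 3, beside 13.7%, 13.5% and 14.1% of all genes. It was 8 without DMSO replicate 2, where 4 were higher, beside 30.3% of all genes lower and 26.4% higher. The higher count was 1 without beta-sitosterol replicate 2 or 3, without DMSO replicate 1 and with the length trend removed, and on the TPM scale it was 0, GADD45A being at an adjusted p of 0.0633 in limma. The nuclear RNAs MALAT1 and NEAT1, which mark speckles and paraspeckles, were not called by edgeR with all libraries, TMM factors and no block or length correction. Of these 2 RNAs, 1 was called higher with RLE factors, in DESeq2, with the replicate block, with the length trend removed and without DMSO replicate 3. Both were called higher without DMSO replicate 2 and with the trend of merged exon length removed.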
